A study of Mus musculus with 300 samples.

Results

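The Klf6 transcript was followed across the livers of 300 mice from a cross of 2 inbred strains, MRL/MpJ and SM/J, called MRL and SM from here on. It is 1 transcript of 34406 in the table and was picked by its identifier, ENSMUST00000000080_at, with values of these data in view. No threshold on a measured value was part of the choice. Its differences between sexes, strains and generations are therefore given with their standard errors as descriptions, with no p-value. The table and the RefSeq gene table used here do not pair the identifier with a gene name, so the name Klf6 was taken as given and was not checked against probe sequences.

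KLF6 is a zinc finger transcription factor of the Krüppel-like family, whose members bind GC-rich and CACCC-containing DNA. In rat liver it was described as a gene that rises early when hepatic stellate cells, the cells that lay down scar matrix, are activated by injury, and other liver cells make it too. In bulk liver RNA, a change in the number of cells that express a gene and a change in RNA per cell cannot be told apart.

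Each animal gave total liver RNA for 1 Affymetrix Mouse Gene 1.0 ST array, which reads transcripts with probes along their exons. The groups were F2 males (147) and F2 females (135) from the intercross of F1 animals, F1 males and females (3 each) from MRL crossed with SM fathers, MRL males and females (3 each), and SM males and females (3 each). All were 13 weeks old, untreated, kept on chow, housed singly for some days and fasted for some hours before the liver was taken. The F2 genotypes were not used here, so an F2 animal's alleles at Klf6 are not known in what follows.

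The labels give 14 batches, the smallest with 2 arrays and the largest with 25, and values lay between 4.66 and 13.60 on a log2 scale. Sex labels were compared with 45 transcripts that were higher by over 1 log2 unit in males of both parental strains and 47 that were higher in females. On a scale with parental females at -1 and males at 1, the library labelled F1 male replicate 1146 stood at -0.94, on the female side. That library and 5 F2 libraries, 6 in all, scored under 0.5 toward their labelled sex. Some values, not all, are also given without them. Liver and other cell type markers were not examined, because the rows carry no gene names.

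Klf6 lies on the plus strand of mouse chromosome 13, from 5861489 to 5870393 in GRCm38.p6. Its RefSeq promoter window, chr13:5861239-5861538, is shown to place the gene in its sequence context. Capitals mark the GC box GGGCGG, a site type of Krüppel-like and SP factors, and the CCAAT box or its reverse complement.

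Klf6 promoter: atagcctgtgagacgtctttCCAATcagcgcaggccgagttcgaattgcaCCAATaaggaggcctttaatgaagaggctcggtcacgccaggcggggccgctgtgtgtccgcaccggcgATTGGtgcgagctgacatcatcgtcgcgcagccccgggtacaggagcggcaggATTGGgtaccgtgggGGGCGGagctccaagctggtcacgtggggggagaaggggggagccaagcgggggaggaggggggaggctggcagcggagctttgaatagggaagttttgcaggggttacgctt

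The window, read on both strands, held 1 match to GGGCGG, starting at position -63 from the transcription start, and 4 to CCAAT, starting at positions -230, -200, -131 and -78. None of these matches overlapped. GGGCGG occurs in 35.7% and CCAAT in 37.4% of 32851 RefSeq promoter windows of the same length. The letters CACCC, in 57.5% of windows, were not in this one. Neither was TATAAA, in 13.6% of windows, nor TGACGTCA, in 1.79%. The window was 63% G and C, against a median of 52.7% over all windows. It is the C57BL/6J reference sequence, and no MRL or SM sequence was read.

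The Klf6 transcript had a mid-range array value in F2 livers. Its mean of 6.76 stood at percentile 50.0 of the transcript means, which ran from 4.96 to 13.43. Such percentiles set array values of different probe sets side by side, so they place Klf6 on the array and do not measure its abundance against other genes.

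By group mean, MRL females (6.92) and MRL males (6.90) stood highest, then F2 females (6.87), F1 females (6.74), SM males (6.71), F1 males (6.70), SM females (6.68) and F2 males (6.67). The widest step in this order, 0.13 log2 units between F2 females and F1 females, was smaller than the SD of the F2 females, 0.14, and larger than that of the F1 females, 0.05. The F1 female values nevertheless lay inside the F2 female range. The other steps were 0.04 or less, each under the SD of both neighbours.

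**Figure D1:**
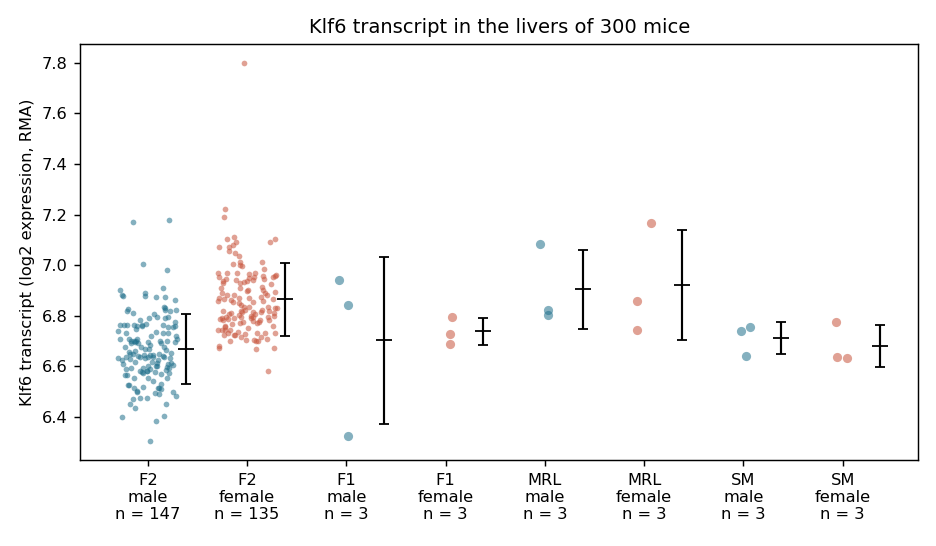
Each point is 1 animal's Klf6 transcript value (log2 expression) by group, and the bars give the mean ± SD. F2 males centre on 6.67 and F2 females on 6.87, with F2 female replicate 2273 alone at 7.80, while the groups of 3 lie between 6.33 and 7.17.

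The sexes differed most plainly in F2. Among 147 F2 males the lowest Klf6 value was 6.30, the median 6.65 and the highest 7.18. Among 135 F2 females the lowest was 6.58, the median 6.83 and the highest 7.80. The ranges overlapped, but 134 of the 147 males lay below the female median and 134 of the 135 females lay above the male median.

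The mean was 6.67 ± 0.14 in F2 males and 6.87 ± 0.14 in F2 females (SD). With batch in the limma fit, the male minus female difference was -0.20 ± 0.02 log2 units (SE), which makes the level 1.15-fold higher in females. Its size stood at percentile 94.8 of all 34406 transcripts, whose median absolute difference was 0.02.

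The difference had the same direction in every batch that held both sexes, 13 of 13. Within batches it ran from -0.31 ± 0.10 log2 units in batch 3, which holds F2 female replicate 2273, to -0.14 ± 0.05 in batch 2 (SE). Batches 5, 9 and 13 were also at -0.14. Without that female and the 2 males of highest value the difference over all batches was -0.20 ± 0.02 (SE, 279 animals).

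**Figure D2:**
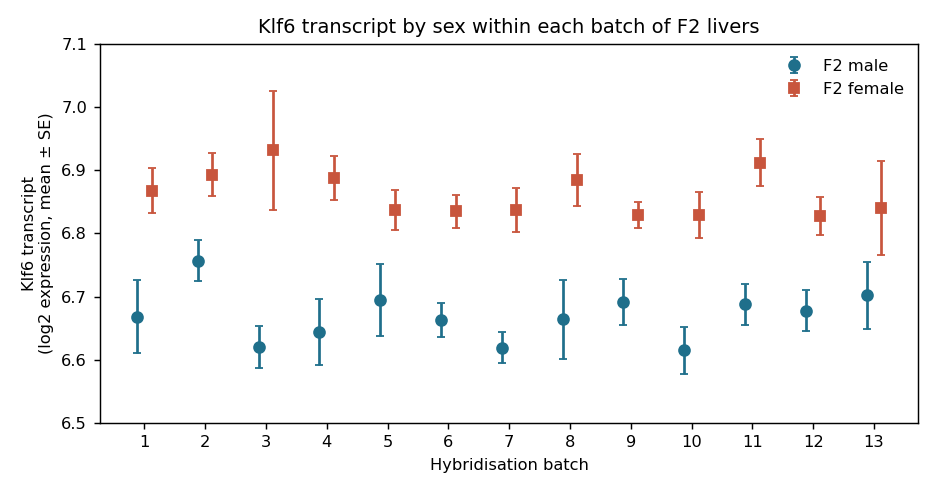
Mean Klf6 transcript value ± SE (log2 expression) of F2 males and F2 females in each of the 13 batches with both sexes. The female mean lies above the male mean in all 13.

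Parental and F1 animals did not show the same gap. Averaged over MRL, SM and F1, the male minus female difference was -0.01 ± 0.07 log2 units (SE, 18 animals), at percentile 10.1 of absolute differences over all transcripts. Without the library labelled F1 male replicate 1146 it was -0.05, and without F1 male replicate 1152, the lowest animal, it was 0.06, so its sign rests on single animals. When all 300 animals were fitted together with batch, the F2 sex difference minus that of the 18 animals was -0.17 ± 0.07 log2 units (SE). That fit kept the library labelled F1 male replicate 1146 as a male and was not repeated without it or replicate 1152.

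MRL males had 6.80, 6.82 and 7.09 log2 units of the Klf6 transcript, against 6.64, 6.74 and 6.76 in SM males. MRL females had 6.74, 6.86 and 7.17, against 6.63, 6.64 and 6.78 in SM females. The strains did not overlap in males, and in females the lowest MRL value lay under the highest SM value. Over both sexes, 5 of 6 MRL animals stood above every SM animal.

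Over both sexes the MRL minus SM difference was 0.22 ± 0.09 log2 units (SE from the spread of all 18 animals, 6 per strain compared), or 1.16-fold, at percentile 91.5 of absolute strain differences. It was 0.19 ± 0.13 in males and 0.24 ± 0.13 in females. Each rests in part on 1 MRL animal: the male difference was 0.10 without MRL male replicate 8, and the female difference was 0.12 without MRL female replicate 1. The male minus the female strain difference was -0.05 ± 0.18 log2 units, under its own error, and it was 0.07 without MRL female replicate 1 and -0.14 without MRL male replicate 8. A sequence difference between strains under a probe would also change an array value, and this was not tested.

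F1 males had 6.33 (replicate 1152), 6.84 (replicate 1151) and 6.94 (the library labelled replicate 1146), and F1 females had 6.69, 6.73 and 6.80. The F1 males thus spanned more than any other group of 3, with an SD of 0.33, against 0.05 in F1 females. F1 male replicate 1152 was the lowest of the 18 animals, and its array spread, the SD over all transcripts of an array, was 1.22, which SM male replicate 6 also had and which was the lowest of the 18.

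F1 minus the mean of MRL and SM was -0.08 ± 0.08 log2 units (SE). Without replicate 1152 it was 0.01, and without the library labelled replicate 1146 it was -0.14, so neither its size nor its sign is settled by these animals. In the joint fit with batch, F2 minus the parental mean was -0.03 ± 0.04, and F2 minus F1 was 0.06 ± 0.06 (SE).

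Within F2 the spread of the Klf6 transcript, with batch subtracted, was 0.14 log2 units in males and 0.15 in females (SD). These stood at percentiles 79.2 and 85.0 of all transcripts, whose medians were 0.11 in males and 0.10 in females. The distribution leaned to high values, with a skewness of 0.60 in males and 2.27 in females. Much of this lean came from few animals. Without male replicates 2117 and 2118 the male skewness was 0.07. Without female replicate 2273 the female skewness was 0.56, still toward high values, and the SD of the values as deposited was 0.12.

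The 12 parental animals spanned 6.63 to 7.17. Below that span lay 58 F2 males and 1 F2 female, and above it lay 2 F2 males and 3 F2 females. Divided by the pooled variance inside the groups of 3, the F2 variance (sex and batch removed) gave 0.64 for Klf6 and 1.29 for the median transcript. The ratio for Klf6 stood at percentile 4.99, but it rests on 1 animal. Without F1 male replicate 1152 it was 1.26, at percentile 43.2, against 1.37 for the median transcript, and without each of the other 17 animals in turn it was 0.59 to 0.73.

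Batch took 3.73% of the F2 variance of the Klf6 transcript after sex (permutation test within sex, p = 0.657, 100000 resamples), against a median of 8.85% over all transcripts. The choice of the transcript did not use batch, so this test and the next are given with their p-values.

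Klf6 moved with the spread of the array. With sex and batch subtracted, arrays of wider spread had higher Klf6 values, with Pearson r = 0.28 and Spearman rho = 0.30 over 282 F2 animals (two-sided permutation p = 1e-05 for each, the smallest that 100000 resamples give). Of 16 such relations tested together, Benjamini-Hochberg adjustment gave 8e-05 for r and 1.6e-04 for rho. Without the 2 arrays of most distant spread r was 0.28. Within the 13 batches r ran from -0.35 to 0.68 and was positive in 11, with an adjusted p under 0.05 in batches 1 and 10. A relation of this size was common on the array: the median absolute r over all transcripts was 0.40. The sex difference was -0.19 ± 0.02 log2 units (SE) after the slope on array spread was subtracted.

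**Figure D3:**
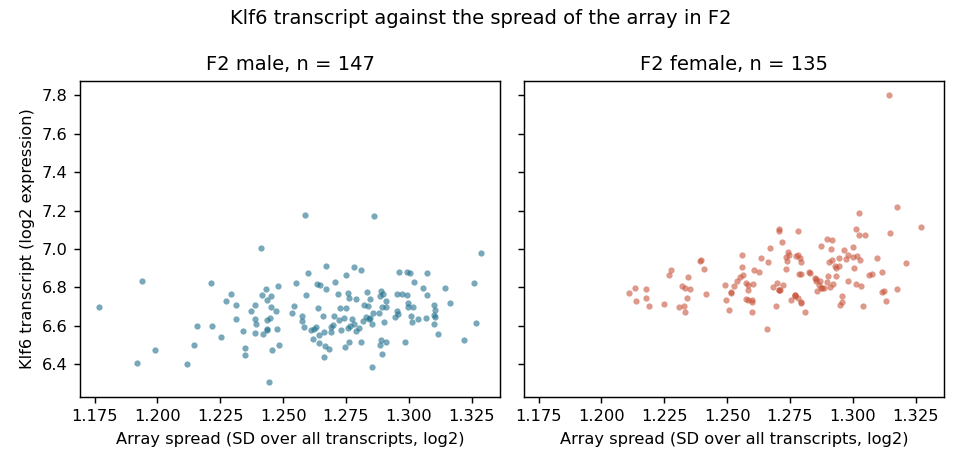
Klf6 transcript value (log2 expression) against array spread, the SD over all transcripts of an array, with 1 point per F2 male (left) and F2 female (right). The rise with spread is shallow in males, where r is 0.16, and steeper in females, where r is 0.41.

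Transcripts that rose and fell with Klf6 among F2 animals were ranked by Pearson r with batch subtracted, separately in males and females. All correlations given here are descriptions over animals that share arrays and batches, with no p. At r of 0.5 or more, 209 of the other 34405 transcripts moved with Klf6 in males and 191 in females. At r of -0.5 or less there were 8 in females, and the lowest r in males was -0.46. The highest r was 0.64 in males and 0.63 in females, so no other row was a near copy of the Klf6 row.

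Such numbers of partners were not unusual for this array. Klf6 had 209 partners of either sign in males and 199 in females, against a median of 75 and 44 over all transcripts, at percentiles 58.0 and 63.5. Without male replicates 2117 and 2118 it had 23 in males, and without female replicate 2273 it had 11 in females, against medians of 75 and 41.

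The correlations found in one sex recurred in the other. How far those of other transcripts recur is not given here, so this is not shown to be particular to Klf6. The 209 transcripts of the male list were all positive in females, with a median r of 0.49, and the 191 of the female list were all positive in males, with a median r of 0.49. Over all transcripts 43.1% were positive in males and 46.7% in females. Both lists held 91 transcripts in common, 43.5% of the male list and 47.6% of the female list. With array spread in the fit, 37 transcripts were in common, of which 29 were among the 91. The closest transcripts on either side of the limit had a smaller r, of the pair of sexes, of 0.5001 and 0.4999.

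**Figure D4:**
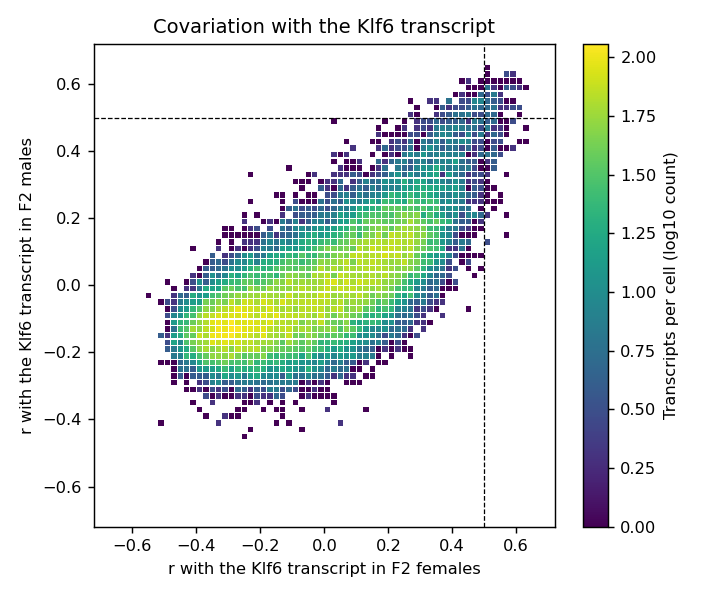
Pearson r with the Klf6 transcript in 135 F2 females (x axis) and 147 F2 males (y axis) for 34405 transcripts, binned, with colour for the log10 count and dashed lines at 0.5. The values of the sexes correlate with r = 0.72 across transcripts, which are not independent, and 91 transcripts lie beyond both lines.

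The counts past the limit of 0.5 rested on 3 livers, while r across transcripts between the sexes was 0.70 without them, close to the 0.72 with them. In F2 female replicate 2273, the animal of highest Klf6 value at 7.80 (next female 7.22), all 91 transcripts of the common list were at their highest among 135 females. There, 1628 transcripts of the array lay over 3 SD from the female mean of their batch, the most of any female, against a median of 28, and its sex score was on the female side at 0.89. F2 males 2117 and 2118, at 7.18 and 7.17, held a median rank of 3 among 147 males over the 91 transcripts and had 501 and 476 transcripts over 3 SD, against a median of 31. The 91 were chosen by r over F2 animals that include these 3, so their high values there follow in part from the choice.

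Without these animals all 91 transcripts had a positive r with Klf6 in each sex, but they had been chosen for their r over the same remaining F2 animals, so the sign is no independent support. The median was 0.46 in males (range 0.37 to 0.55) and 0.33 in females (range 0.18 to 0.52), against -0.02 and -0.01 over all transcripts. None of the 91 was then at 0.5 or more in both sexes. The 18 animals outside F2 had no part in the choice. There, with group means subtracted, 90 of the 91 were positive with a median r of 0.54. Over all transcripts 46.1% were positive and the median was -0.04. Without F1 male replicate 1152 the median of the 91 was 0.35 and 89 were positive. Both medians kept the library labelled F1 male replicate 1146 among the F1 males, though its sex score was on the female side. Values without that library are not given here, so its part in them is not known. The 91 also moved with each other in F2, with a median pairwise r of 0.70 in males and 0.68 in females. They are thus not 91 independent observations.

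By the smaller Pearson r of the sexes over all F2 animals, ENSMUST00000105445_at had the pattern most like Klf6, with r = 0.60 in 147 F2 males and 0.61 in 135 F2 females. Its level was 7.84 ± 0.22 log2 units in F2 males and 7.92 ± 0.18 in F2 females (SD). In female replicate 2273 it reached 9.14, the highest of the females. Without the 3 animals above r was 0.50 in males and 0.42 in females.

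ENSMUST00000085572_at followed, with r = 0.60 in males and 0.63 in females. It stood at 6.26 ± 0.14 log2 units in F2 males and 6.37 ± 0.14 in F2 females (SD), and at 7.15 in female replicate 2273. Without the 3 animals its r was 0.54 in males and 0.48 in females, above that of ENSMUST00000105445_at in both sexes. By Spearman rho it also came closer, at 0.47 in males and 0.52 in females, against 0.46 and 0.40 for ENSMUST00000105445_at.

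In the opposite direction, ENSMUST00000036300_at had r = -0.41 in males and -0.50 in females. Its level was 7.81 ± 0.16 log2 units in F2 males and 7.50 ± 0.16 in F2 females (SD), and female replicate 2273 had the lowest value of the females, 7.01. ENSMUST00000026831_at had r = -0.39 in males and -0.37 in females, at 7.13 ± 0.13 and 7.08 ± 0.10 log2 units (SD). Without the 3 animals the negative correlations were -0.34 and -0.37 in males and -0.45 and -0.40 in females. With array spread in the fit, r was -0.40 in males and -0.31 in females for ENSMUST00000036300_at, and -0.39 in males and -0.13 in females for ENSMUST00000026831_at. No table used here pairs any of these identifiers with a gene.

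**Figure D5:**
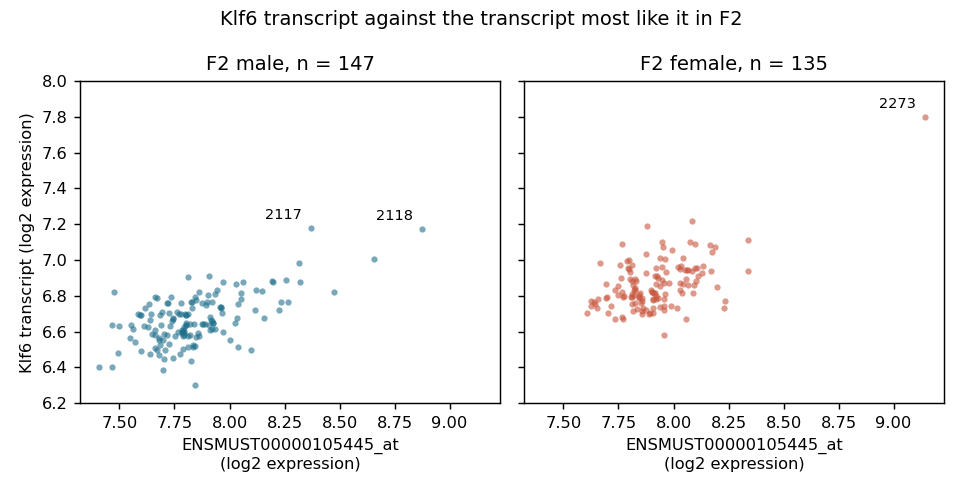
Klf6 transcript value against ENSMUST00000105445_at, both as log2 expression, with 1 point per F2 male (left) and F2 female (right). Female 2273 and males 2117 and 2118 are labelled and lie at the upper right of their groups, and the cloud of the other animals also rises.

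Most of the 91 transcripts had a sex difference of the same sign as Klf6, 88 of 91 in F2. Over all transcripts, 58.3% had the opposite sign in F2. The F2 sex contrast took no part in the choice of the 91, since r was computed within each sex. In F2, 67 of the 91 were lower in males at a limma adjusted p under 0.05, where 21.3% of all transcripts were, and 1 was higher in males, where 23.7% of all transcripts were. Their median male minus female difference was -0.09 log2 units, against 0.01 over all transcripts and -0.20 for Klf6. Without the 3 animals 69 were lower. The 91 move together, as given above, so these counts and those that follow are not of independent transcripts.

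In the MRL, SM and F1 animals 19 of the 91 were lower in males at an adjusted p under 0.05 (limma), where 4.1% of all transcripts were. Of the 91, 89 had a negative estimate, where 54.1% of all transcripts had a positive one. Higher in males by the same limma test were 0 of the 91, where 4.94% of all transcripts were. At an unadjusted p under 0.05 there were also 0, where 11.4% of all transcripts were higher. The median difference of the 91 was -0.13 log2 units, against 0.01 over all transcripts. Klf6 itself stood at -0.01 in those animals, as given above. This fit kept the library labelled F1 male replicate 1146 as a male, and counts without it are not given here.

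Between the parental strains the shares of the list that were called lay near those of all transcripts. Of the 91, 4 were higher in MRL, where 6.08% of all transcripts were, and 2 were higher in SM, where 4.25% were (limma, adjusted p under 0.05). At an unadjusted p under 0.05, 14 were higher in MRL and 8 were higher in SM, where 12.0% and 8.97% of all transcripts were. The median MRL minus SM difference was 0.03 log2 units, against 0.01 over all transcripts and 0.22 for Klf6. For F1 minus the parental mean, limma called 0 of the 91 at an adjusted p under 0.05, where 0.0203% of all transcripts were higher and 0.0174% lower, and 1 of the 91 was lower at an unadjusted p under 0.05, where 5.07% of all transcripts were.

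The median r of the 91 transcripts with array spread was 0.13 in males and 0.33 in females, against signed medians of -0.05 and -0.03 over all transcripts. In size these lie below the median absolute r of 0.40 that all transcripts had with array spread over F2 animals of both sexes. With array spread in the fit, their median r with Klf6 was 0.55 in males and 0.46 in females, and the part of the array in these values was not tested further.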

How the data were processed

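Liver RNA of 300 mice was measured on 1 array each. The authors deposited 1 log2 value for each Ensembl transcript and animal. The submitters' processing notes name RMA, affy and R 2.11. As a method, RMA corrects background, makes the arrays' distributions alike by quantiles and summarises probes on the log2 scale. No Ensembl release or build was found in the labels or the table. All 34406 transcripts were kept. The RefSeq table (GRCm38.p6) named 0 of them.

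Groups came from the labels. Differences were fitted with limma 3.58.1 in R 4.3.3 over all transcripts, with Benjamini-Hochberg adjustment. F2 sex was fitted with batch as a fixed term, and the 18 MRL, SM and F1 animals with 6 group means. For a count of calls the threshold was an adjusted p of 0.05. Covariation was Pearson r after batch means were subtracted within sex. Named covarying transcripts were the 2 in each direction with the greatest smaller absolute r of the sexes. Permutation tests used Python 3.11.15 and numpy 2.4.6. The fits and correlations were tested on simulated normal values with no outlying animals. Those simulations therefore say nothing of the counts that rest on 3 livers. Klf6, the limits and the lists were chosen with earlier results of these data known, and the alternatives without named F2 animals, and the variance ratio without each of the 18 animals, were added after the data were seen. Planned lists of genes by symbol were not applied, since rows carry no symbols. Promoter sequence is from RefSeq. The number of arrays limits precision. Replicates are separate animals per the labels. Figures were drawn with matplotlib 3.10.9.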

Additional observations from a re-analysis of the deposited data

Results flagged for a closer look

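By Pearson r, the relation of the Klf6 transcript to array spread differed between the sexes in F2. There r was 0.16 in 147 males and 0.41 in 135 females with batch subtracted. The male minus female difference in r was -0.25 (permutation of the sex labels, two-sided p = 0.0188, not adjusted, 10000 resamples). The male r had a two-sided permutation p of 0.0524 (Benjamini-Hochberg adjusted 0.0838 over 16 relations) with rho = 0.20 (p = 0.0152, adjusted 0.0572). The female r had a p of 1e-05 (adjusted 8e-05) with rho = 0.39 (p = 2e-05, adjusted 1.6e-04). Without female replicate 2273 the female r was 0.42, and without the 2 arrays of most distant spread r was 0.15 in males and 0.41 in females.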

How the results depend on the processing

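The direction of the F2 sex difference held in the 9 alternatives over all batches, from -0.20 to -0.18 log2 units, and that of MRL minus SM over both sexes in 9, from 0.20 to 0.22, and in the 18 fits without 1 animal, from 0.16 to 0.26. Leaving out 1 animal gave 0.12 to 0.33 for the strain difference in females, 0.10 to 0.24 in males, -0.14 to 0.07 for the male minus female strain difference, -0.14 to 0.01 for F1 against the parental mean, -0.05 to 0.06 for sex in the 18 animals and 0.59 to 1.26 for the variance ratio, which is 1.26 without F1 male replicate 1152. With the animal number as a replicate block MRL minus SM was 0.22 ± 0.07 (SE, the 12 parental animals alone). With those 12 animals and no block it was also 0.22 ± 0.07 (SE). Deviations of same-numbered MRL and SM animals from their group means had r between -0.08 and 0.22. Deviations within groups of 3 cannot settle whether the numbers pair the animals. With arrays centred on their median, sex in the 18 animals was 0.0037 in place of -0.01, and with the slope on array spread subtracted the male minus female strain difference was -0.15 in place of -0.05. The counts of transcripts at r of 0.5 or more in size depended most on the settings. For females the count of 199 became 66 with array spread in the fit, 635 with arrays centred on their median, 7 with Spearman rho, 126 among transcripts above the median mean, 8 without the 2 animals farthest from the median and 11 without replicate 2273 alone. For males the count of 209 became 2 with Spearman rho, 130 among transcripts above the median mean and 23 without replicates 2117 and 2118, which are the 2 farthest from the median. Apart from the left-out animals, the cause was not tested.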

Other observations

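Animals with many transcripts over 3 SD from their batch mean had Klf6 values from high to low. The F2 male replicates with the most such transcripts, 2056 (2220), 2047 (1986), 2174 (1945), 2015 (943) and 2274 (568), stood 59, 8, 9, 3 and 47 of 147 for Klf6. The F2 female replicates with the most, 2273 (1628), 2201 (708), 2229 (679), 2178 (559) and 2156 (473), stood 1, 110, 117, 89 and 9 of 135. Over animals, the number of such transcripts and Klf6 with batch subtracted had r = 0.27 in 147 males (two-sided permutation p = 0.00206, adjusted 0.00245 over 2 relations) and rho = 0.14 (p = 0.084, adjusted 0.168). In 135 females r was 0.42 (permutation p = 0.00245, adjusted 0.00245) and rho 0.09 (p = 0.277, adjusted 0.277). Without the 2 animals of most distant number r was 0.32 in males and 0.10 in females, so the female relation rests on those animals.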
